A study of Mus musculus with 12 samples.

Results

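The question addressed here is whether cuprizone moved the genes of the corpus callosum by the same amount in wild-type mice and in mice without microglial aryl hydrocarbon receptor. The interaction of genotype and cuprizone was computed for every gene with at least 1 FPKM (fragments scaled to transcript length and to the library's mapped fragments) in at least 3 libraries, which gave 13759 of the 15584 genes of the deposited table. All 12 libraries of the series entered, in 4 groups of 3. The groups were wild-type mice without cuprizone (WT control), wild-type mice in the cuprizone model (WT cuprizone), mice whose microglia lack the receptor without cuprizone (AHR CKO control), and such mice in the cuprizone model (AHR CKO cuprizone). The Cre line behind the deletion, the diet's dose and length, the strain, age and sex of the animals, and whether 1 library stands for 1 animal were not given in the sources used here. P-values therefore measure the spread between these libraries, which may be technical.

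Cuprizone is a copper chelator that, fed to mice, kills mature oligodendrocytes and strips the corpus callosum of myelin. Microglia and astrocytes then become reactive, microglia take up the myelin debris, and precursor cells begin to replace the lost oligodendrocytes. The aryl hydrocarbon receptor (AHR) is a ligand-activated transcription factor that pairs with ARNT on DNA, and Tiparp, Cyp1b1 and Nqo1 are among its known targets. An interaction is the difference between 2 differences. It was taken on the log2(FPKM + 1) scale as the cuprizone effect in AHR CKO minus the cuprizone effect in WT. A positive value arises where cuprizone raised a gene more, or lowered it less, in AHR CKO, and a negative value where it raised a gene less, or lowered it more.

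Libraries summed to 447156 to 519470 FPKM, with medians of 8.24 to 9.11. The steps between the lowest values put the depth at roughly 11400000 to 14900000 fragments, an estimate that is coarse since it rests on 9 to 31 genes a library. No gene was listed at 0 in 5 of the 6 WT libraries, whereas WT cuprizone replicate 2 had 94 such genes and the AHR CKO libraries had 52 to 80. WT control replicate 3 and WT cuprizone replicate 2 stood apart in several marker sums given below. Ahr itself, in 12 of 12 libraries, lay between 1.41 and 2.57 FPKM. Its group means were 1.78 ± 0.385 in control and 1.86 ± 0.141 in cuprizone libraries of WT, and 1.76 ± 0.332 in control and 1.94 ± 0.567 in cuprizone libraries of AHR CKO (SD, n = 3), and its interaction was 0.03 (SE 0.23, adjusted p = 0.982). Whole-tissue Ahr values overlapped between the genotypes, and these libraries do not isolate microglia. Cx3cr1, the fractalkine receptor that marks microglia, was 22.6 to 24.9 FPKM in WT control and 49.4 to 69.4 in WT cuprizone, against 1.05, 9.598 and 0.801 in AHR CKO control and 1.16, 22.7 and 29.6 in AHR CKO cuprizone. Each AHR CKO library lay below each WT library of the same treatment, but the AHR CKO libraries differed so widely that the Cx3cr1 interaction had an interval of -2.11 to 3.14 (adjusted p = 0.937).

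The cuprizone effect was called different between the 2 genotypes for few genes, which were oligodendrocyte genes and stress or activity genes. With 3 libraries a group, a gene that was not called cannot be taken to respond alike in both. Limma called 5 of 13759 genes at an adjusted p under 0.05. The oligodendrocyte genes Opalin and Aspa had positive interactions (2 genes, 0.0145% of those tested). Negative interactions were called for the chaperone genes Hspa5 and Hspa1b and for the transcription factor gene Egr2 (3 genes, 0.0218%). At an unadjusted p under 0.05 there were 856 positive genes (6.22%) and 460 negative genes (3.34%), which is the background for the gene lists below. Over all genes the median interaction was 0.03, the 5% and 95% points were -0.43 and 0.50, and 55.3% of genes were positive. The number of calls moved widely with single libraries. It was 103 without WT control replicate 3, 38 without WT cuprizone replicate 2, and 0 without any 1 of WT control replicate 1, the 3 AHR CKO control libraries, or AHR CKO cuprizone replicates 1 and 2, where limma still gave 1043 to 1345 genes at an unadjusted p under 0.05. With sample quality weights it was 2556. The 5 genes kept the sign of their interaction under 23 of 23 alternative analyses. In some of these, such as a change of filter, the estimate cannot move, so its sign was fixed.

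**Figure D1:**
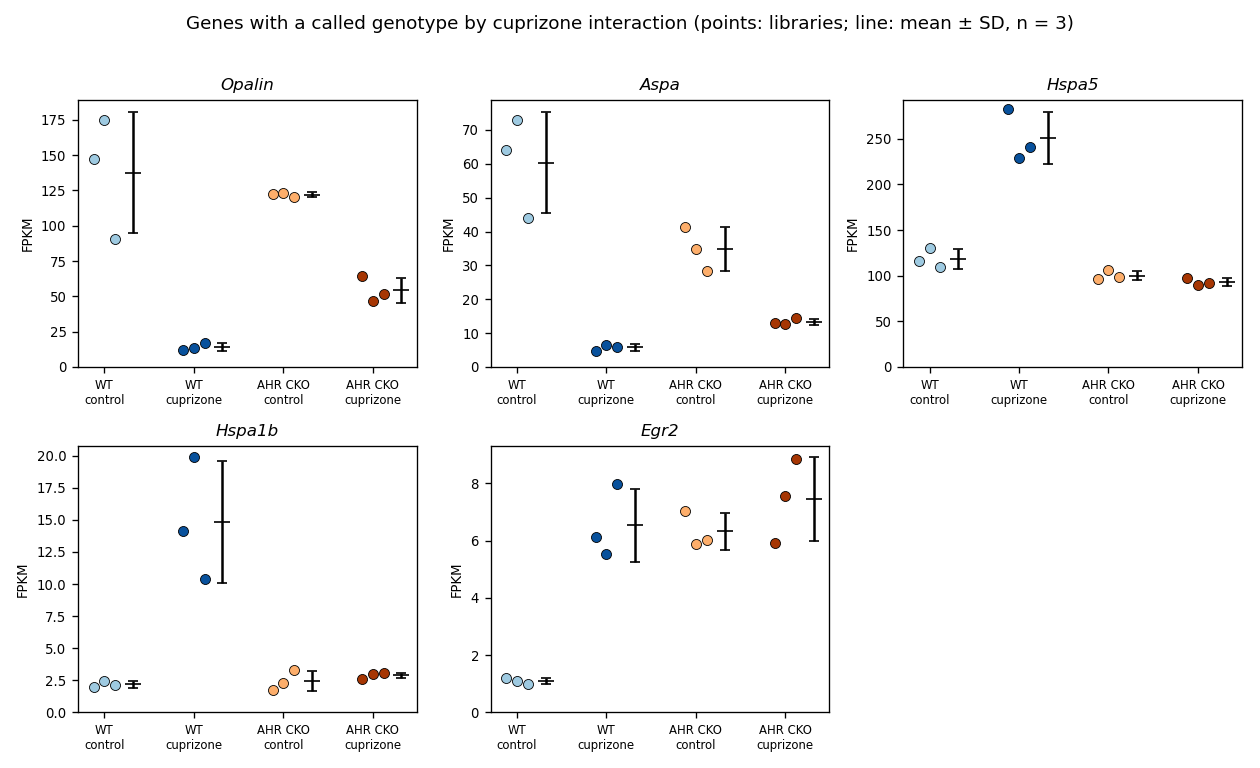
FPKM of the 5 genes with a called interaction in each of the 12 libraries. Each point is a library and each line a group mean ± SD (n = 3). Opalin and Aspa are lowest in the WT cuprizone libraries, Hspa5 and Hspa1b are highest there, and Egr2 is lowest in WT control and lies between 5.52 and 8.86 FPKM in the other groups.

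Opalin, a membrane protein of mature oligodendrocytes (chr19:41061710-41077113 on GRCm38), lost less of its transcript under cuprizone in AHR CKO. WT control libraries held 147, 175 and 90.6 FPKM and WT cuprizone libraries 11.8, 13.1 and 16.9. AHR CKO control libraries held 123, 123 and 120.1 FPKM and AHR CKO cuprizone libraries 64.2, 46.6 and 51.9. The control groups overlapped, whereas each AHR CKO cuprizone library was above each WT cuprizone library. The level fell to 0.101 of control in WT (log2 change -3.18, adjusted p = 3.15e-06) and to 0.445 in AHR CKO (log2 change -1.17, adjusted p = 0.00305). The interaction was 2.01 (SE 0.29, 95% interval 1.37 to 2.65, adjusted p = 0.0465).

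Aspa encodes aspartoacylase, the oligodendrocyte enzyme that splits N-acetylaspartate (chr11:73304992-73329596). Its FPKM was 64.03, 73.05 and 43.9 in WT control and 4.65, 6.58 and 5.99 in WT cuprizone. It was 41.4, 34.8 and 28.3 in AHR CKO control and 12.96, 12.8 and 14.4 in AHR CKO cuprizone. Here the genotypes did not overlap in either treatment. AHR CKO was lower than WT among controls (log2 difference -0.76, adjusted p = 0.0384) and higher under cuprizone (1.10, adjusted p = 0.00565). The level fell to 0.0952 of control in WT and to 0.384 in AHR CKO, which gave an interaction of 1.86 (SE 0.26, 95% interval 1.30 to 2.43, adjusted p = 0.0398).

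The other genes of myelin showed the same sign of interaction. Of 17 structural myelin genes tested, 17 had a positive interaction, 13 at an unadjusted p under 0.05, and Opalin was the 1 called. Their median was 0.82, against 0.03 over all genes. These genes mark the same cells, and in bulk tissue fewer cells of a type and less RNA per cell cannot be told apart. In WT, cuprizone lowered 15 of the 17 (7.81% of all genes were lower there, 9.08% higher), with a median log2 change of -1.89. In AHR CKO it lowered 11 of the 17 (2.98% of all genes lower, 7.22% higher), with a median of -1.04. Cd9, a tetraspanin that other glia also make, rose in both genotypes, and Plp2, a membrane protein not particular to myelin, rose in AHR CKO.

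Of the myelin genes outside the naming rule, chosen after their values were seen, Mal encodes a raft protein of compact myelin. Its mean FPKM was 522 ± 162 in control and 41.5 ± 6.59 in cuprizone libraries of WT, and 342 ± 21.7 in control and 62.7 ± 7.55 in cuprizone libraries of AHR CKO, with an interaction of 1.15 (SE 0.27, adjusted p = 0.215). Mag, the adhesion molecule between myelin and axon, was 306 ± 86.3, 77.7 ± 12.8, 217 ± 6.62 and 116 ± 11.6 FPKM in the same order, with an interaction of 1.04 (adjusted p = 0.215). Gjc3, a connexin of oligodendrocytes, was at 96.2, 108 and 64.1 FPKM in control and 38.5, 62.95 and 47.7 in cuprizone libraries of WT, and at 59.9, 51.2 and 43.4 in control and 38.4, 40.9 and 40.3 in cuprizone libraries of AHR CKO. For Gjc3 the cuprizone groups overlapped, and the genotypes stood apart in the controls, where each WT library was above each AHR CKO library (interaction 0.48, adjusted p = 0.645). Over the 17 genes, AHR CKO minus WT had a median of -0.47 in controls and 0.30 under cuprizone. Limma called 1 of them, Gjc3, lower in AHR CKO controls (4.76% of all genes lower, 1.42% higher) and 2, Mag and Opalin, higher in AHR CKO cuprizone (9.14% of all genes higher, 10.8% lower).

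Enzymes and markers of mature oligodendrocytes mostly had the same sign of interaction. Cuprizone lowered 19 of 22 in WT (7.81% of all genes) and 18 of 22 in AHR CKO (2.98%). Their summed FPKM overlapped between the genotypes in both treatments. It was 2394 to 4103 in WT control and 2036 to 2503 in AHR CKO control, and 1241 to 1467 and 1301 to 1632 in the cuprizone groups. Of 22 tested, 21 had a positive interaction, 14 at an unadjusted p under 0.05, and the median was 0.78. After Aspa, the smallest p-values were those of Ndrg1, which sustains the myelin sheath (interaction 1.23, adjusted p = 0.156), and of Anln, an anillin that is abundant in myelin (1.44, adjusted p = 0.188). Both were picked after their values were seen. Among the 11 transcription factors of the lineage, 9 were positive and 4 (Nkx6-2, Sox10, Myrf and Olig2) had an unadjusted p under 0.05, with a median of 0.50. Without WT control replicate 3 that count was 8 and the median 0.67, and the mature list had 18 such genes and a median of 0.999. Nkx6-2, which acts late in oligodendrocyte maturation, kept 0.798 of its control level in AHR CKO and 0.316 in WT (interaction 1.23, adjusted p = 0.215). Sox10, required throughout the lineage, had an interaction of 0.63 (adjusted p = 0.367) and Olig1 one of 0.34 (adjusted p = 0.701).

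Lists of earlier stages of the lineage had medians near 0. Of 15 precursor markers, 1 (Olig2, shared with the previous list) had an unadjusted p under 0.05, and the median was 0.10. Bcan and Olig2, the most abundant of these, had interactions of 0.05 and 0.54. Of 15 genes of differentiating oligodendrocytes none had an unadjusted p under 0.05, and their median was -0.01. Bcas1 had an interaction of 0.48 and Sirt2 of 0.29. Whether the mature and earlier stages differ from each other in their interaction was not tested.

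WT control replicate 3 bears on the myelin values. Its summed FPKM of the 17 myelin genes was 11197, against 16269 and 20277 in the other WT controls and 10802 to 11539 in AHR CKO controls. It also had the highest sum of 18 striatal neuron genes, 3937 FPKM against 932 and 1417 in the other WT controls. AHR CKO controls had 1733 to 2765 FPKM in this sum. Without this library the myelin median was 1.05 with 16 of 17 genes at an unadjusted p under 0.05, and without WT control replicate 2 it was 0.62 with 12.

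**Figure D2:**
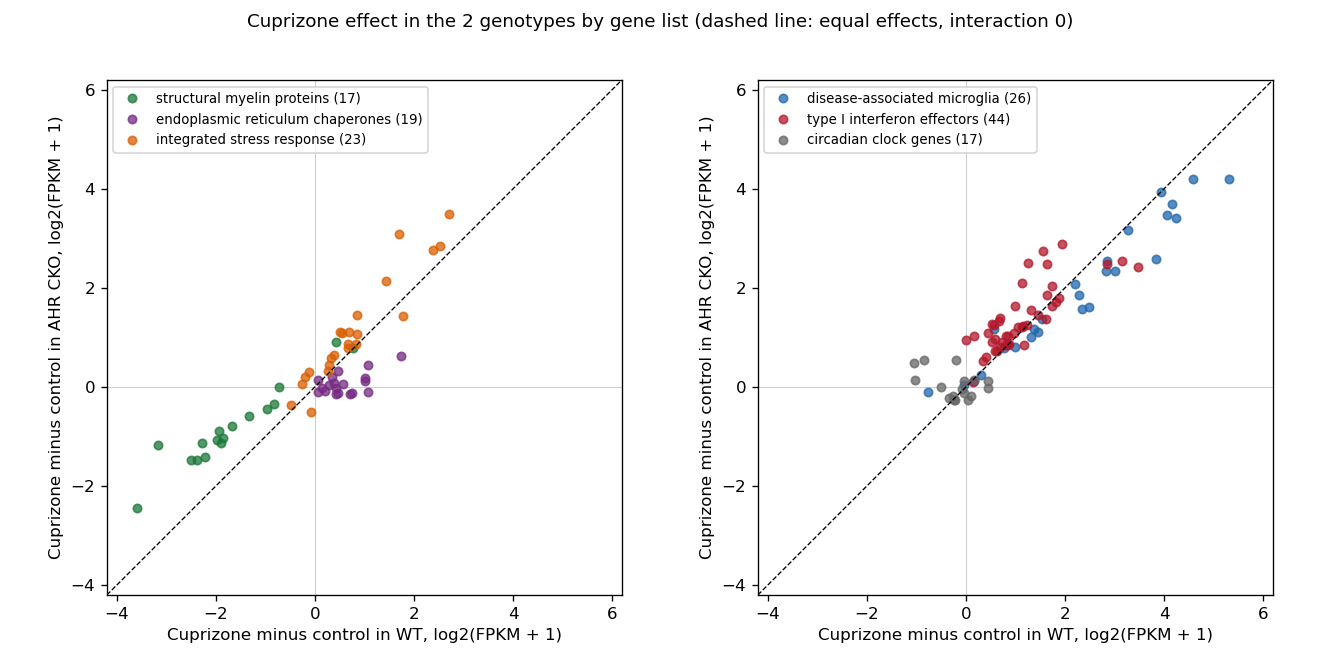
Cuprizone effect in WT (horizontal) against that in AHR CKO (vertical), both as log2(FPKM + 1) differences of group means, for the tested members of 6 gene lists. Points on the dashed line have an interaction of 0. Of the 17 structural myelin genes 17 lie above the line, and 18 of 19 endoplasmic reticulum chaperone genes lie below it.

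Of the chaperones of the endoplasmic reticulum, 18 of 19 tested had a negative interaction. They fold secreted and membrane proteins, and cells raise them through the unfolded protein response, in which the factors ATF6 and XBP1 act on their promoters. Hspa5 encodes BiP, the main chaperone and sensor of this system (chr2:34771970-34777547). It stood at 116, 130.4 and 109 FPKM in WT control and 283, 229 and 241 in WT cuprizone, and at 96.3, 106 and 98.1 in AHR CKO control and 97.9, 89.5 and 92.4 in AHR CKO cuprizone. The 3 WT cuprizone libraries were above the other 9, and the AHR CKO groups overlapped. Hspa5 rose 2.12-fold in WT (adjusted p = 1.65e-05). In AHR CKO the ratio was 0.932 (log2 -0.10, SE 0.10, adjusted p = 0.576). The interaction was -1.18 (SE 0.14, 95% interval -1.48 to -0.87, adjusted p = 0.0277).

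The 1 chaperone of the 19 with a positive interaction was Dnajb9. Of the 18 negative genes, 12 were at an unadjusted p under 0.05, and the median over the 19 was -0.51. In WT, cuprizone raised 13 of the 19 (9.08% of all genes), in AHR CKO 2, Pdia4 and Sdf2l1 (7.22% of all genes). Among controls 1 of the 19, Sel1l, was lower in AHR CKO (4.76% of all genes), and under cuprizone 17 of the 19 were (10.8% of all genes). Their summed FPKM was 912 to 987 in control and 1328 to 1600.1 in cuprizone libraries of WT, and 825 to 891 in control and 846 to 854 in cuprizone libraries of AHR CKO. The AHR CKO cuprizone libraries thus lay close together and under the WT controls. The list's median stayed between -0.64 and -0.47 when any 1 library was left out.

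Pdia6, a disulfide isomerase, had 107, 84.2 and 99.1 FPKM in WT cuprizone and 46.4 to 52.4 in AHR CKO cuprizone, with 52.1 to 61.9 and 51.003 to 55.8 in the controls (interaction -0.88, SE 0.14, adjusted p = 0.0673). Calr, the calcium-binding lectin chaperone calreticulin, had 290.1, 237 and 258 FPKM in WT cuprizone and 151 to 165 in AHR CKO cuprizone (interaction -0.85, adjusted p = 0.0673). Manf, a secreted protein that binds BiP, had 49.5, 40.9 and 40.7 against 21.3 to 21.4 FPKM (interaction -0.88, adjusted p = 0.0681). In each of these genes the 3 WT cuprizone libraries were the highest of the 12. Sdf2l1, a partner of BiP chosen after its values were seen, rose 3.497-fold in WT and 1.58-fold in AHR CKO, an interaction of -1.11 (adjusted p = 0.2). Xbp1 itself, also chosen afterwards, rose 1.35-fold in WT and had a ratio of 0.986 in AHR CKO (interaction -0.44, adjusted p = 0.265).

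Several of these chaperone genes hold the same element in their promoters, and a few are shown because the genes had the same sign of interaction. The endoplasmic reticulum stress response element was searched as CCAAT and CCACG spaced by 9 bases, on either strand, in the RefSeq promoter windows of GRCm38.p6, which run from 250 bases before to 50 after a gene's start. The motif was chosen after the values were seen. It was found in 8 of the 17 chaperone genes with a window (47.06%), Sdf2l1 not among them, and in 37 of 27025 genes in all (0.1369%). A match is a description of letters, and binding was not measured. In the lines that follow, capitals mark the match, and each sequence is read on the gene's own strand. Hspa5 is given with its whole window (chr2:34771840-34772139, plus strand). Pdia6 (chr12:17266481-17266519, plus strand), Calr (chr8:84847065-84847103, minus strand), Hsp90b1 (chr10:86705628-86705666, minus strand) and Creld2 (chr15:88819510-88819548, plus strand) are given with 10 bases on each side.
Hspa5: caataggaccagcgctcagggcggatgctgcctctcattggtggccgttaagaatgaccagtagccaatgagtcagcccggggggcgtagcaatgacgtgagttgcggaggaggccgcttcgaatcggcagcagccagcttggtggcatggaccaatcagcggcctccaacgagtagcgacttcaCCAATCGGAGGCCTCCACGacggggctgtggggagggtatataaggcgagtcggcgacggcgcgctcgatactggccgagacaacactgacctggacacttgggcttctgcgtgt
Pdia6: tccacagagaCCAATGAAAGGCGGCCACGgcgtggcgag
Calr: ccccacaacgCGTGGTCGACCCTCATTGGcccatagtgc
Hsp90b1: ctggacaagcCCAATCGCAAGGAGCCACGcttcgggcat
Creld2: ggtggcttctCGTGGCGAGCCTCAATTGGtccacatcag

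Of these, Hsp90b1, the compartment's HSP90, had an interaction of -0.57 (adjusted p = 0.212), and Creld2, a disulfide isomerase, one of -0.84 (adjusted p = 0.212). In the matches shown, Calr and Creld2 hold the element in the opposite orientation to the other 3. The match lies 65 bases before the start in Hspa5 and 98 before it in Pdia6. Hsp90b1 holds 2 matches, 212 and 107 bases before the start, of which the first is shown. The core of the AHR response element, GCGTG on either strand, was found in 12 of the 17 chaperone windows (70.59%) and in 35.15% of all genes. It was also found in 14 of 15 clock genes with a window (93.33%) and in 13 of 20 genes of the integrated stress response (65%). In the list of AHR, its partners and targets it was found in 4 of 8 genes (50%). The share was 50% in cytosolic heat shock proteins (5 of 10), 29.03% in type I interferon effectors (9 of 31) and 25% in interferon-induced GTPases (2 of 8). Base composition was not matched in these shares, and overlap between motifs was not removed. In the Calr and Hsp90b1 sequences above, a match to the AHR core shares bases with the capitals.

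The cytosolic heat shock proteins, which refold proteins outside that compartment, gave the second called chaperone. Hspa1b encodes inducible HSP70 (chr17:34956436-34959238). It was at 1.95, 2.45 and 2.13 FPKM in WT control and 14.2, 19.9 and 10.4 in WT cuprizone, and at 1.71, 2.31 and 3.31 in AHR CKO control and 2.63, 2.96 and 3.06 in AHR CKO cuprizone. Each WT cuprizone library was above each of the other 9, which overlapped. The interaction was -2.08 (SE 0.29, 95% interval -2.71 to -1.44, adjusted p = 0.0398). Hspa1b and its neighbour Hspa1a are nearly identical in sequence, and how the authors' counting split reads between them was not given in the sources used here. Hspa1a had 7.99, 14.3 and 7.18 FPKM in WT cuprizone and 3.57 to 4.68 in AHR CKO cuprizone (interaction -1.25, adjusted p = 0.317).

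Of 14 heat shock genes, 13 were negative, 6 of them at an unadjusted p under 0.05, with a median of -0.30. Dnajb1, the HSP40 partner of HSP70, rose 1.32-fold in WT (adjusted p = 0.0101) and had a ratio of 0.824 in AHR CKO (interaction -0.67, adjusted p = 0.153). Hspb1, the small chaperone HSP27 that reactive astrocytes make, rose 3.81-fold in WT (interaction -1.27, adjusted p = 0.195). The core of the heat shock element, searched as GAA and TTC spaced by 2 bases and likewise chosen afterwards, was found in 8 of the 10 genes of this list with a window (80%) and in 9.036% of all genes. The window of Hspa1b (chr17:34959189-34959488, minus strand) follows, with its match, 104 bases before the start, in capitals.
Hspa1b: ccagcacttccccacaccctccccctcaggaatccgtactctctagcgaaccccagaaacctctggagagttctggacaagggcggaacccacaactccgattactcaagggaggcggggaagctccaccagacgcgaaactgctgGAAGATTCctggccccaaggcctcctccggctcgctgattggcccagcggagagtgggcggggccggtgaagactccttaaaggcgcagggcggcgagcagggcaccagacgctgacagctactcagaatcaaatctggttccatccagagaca

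**Figure D3:**
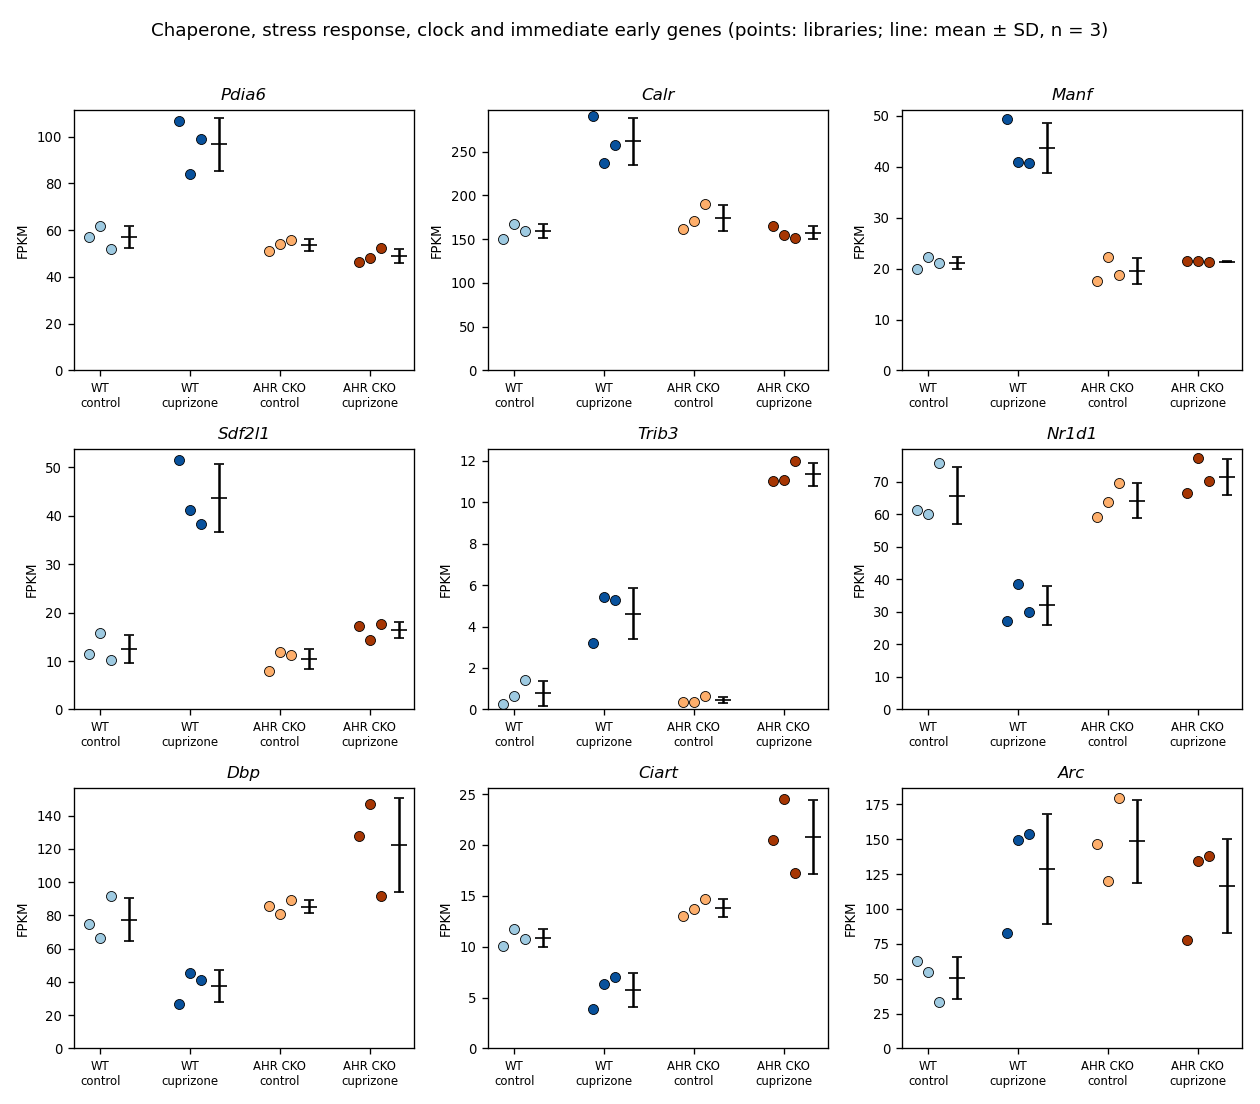
FPKM of 9 chaperone, stress response, clock and immediate early genes in each library, with group means ± SD (n = 3). The 4 chaperone genes are highest in the 3 WT cuprizone libraries, Trib3 is highest in the AHR CKO cuprizone libraries, and Nr1d1, Dbp and Ciart are lowest in the WT cuprizone libraries.

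Immediate early genes are switched on within minutes of neuronal firing or a growth signal. Egr2, a zinc finger factor of this class (chr10:67535475-67542188), had 1.199, 1.09 and 0.999 FPKM in WT control and 6.11, 5.52 and 7.98 in WT cuprizone. In AHR CKO it had 7.05, 5.89 and 6.02 in control and 5.93, 7.55 and 8.86 in cuprizone. The 3 WT controls were below the other 9 libraries, which overlapped. Its interaction of -1.64 (SE 0.21, 95% interval -2.10 to -1.18, adjusted p = 0.0329) therefore came with a difference among controls, where AHR CKO was higher by 1.80 on the log2 scale (adjusted p = 0.000565), and a difference under cuprizone of 0.16 (adjusted p = 0.443). This is the reverse of Hspa5, for which the controls differed by -0.24 and the cuprizone groups by -1.41.

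All 18 immediate early genes tested had a negative interaction, 10 of them at an unadjusted p under 0.05, with a median of -0.59. Limma called 11 of the 18 higher in AHR CKO controls than in WT controls (1.42% of all genes), and cuprizone raised 8 of the 18 in WT (9.08% of all genes). Their median cuprizone effect was 0.63 in WT and 0.00 in AHR CKO. Summed FPKM of the 18 was 442, 635 and 732 in WT cuprizone replicates 1 to 3, and 367 to 417 in WT control. With any 1 library left out, the median interaction lay between -0.73 and -0.45. Between 7 and 13 genes were then negative at an unadjusted p under 0.05. Fosl2, a subunit of the AP-1 factor and among the 20 genes of smallest p, had means of 4.07, 7.86, 8.37 and 5.88 FPKM in WT control, WT cuprizone, AHR CKO control and AHR CKO cuprizone (interaction -1.27, adjusted p = 0.0874). Arc, a synaptic gene driven by neuronal activity and chosen after its values were seen, had 62.6, 54.8 and 33.6 FPKM in WT control and 146, 119.7 and 179 in AHR CKO control (interaction -1.70, adjusted p = 0.222). In cuprizone tissue Arc overlapped between the genotypes, at 82.9 to 154 and 77.5 to 138 FPKM. Summed FPKM of 23 excitatory neuron genes overlapped in the 4 groups, at 4766 to 5555, 4214 to 5489, 4866 to 6880.0 and 4664 to 5551 in the same order.

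Several clock genes were among the 20 genes of smallest p, with positive interactions that did not pass the adjusted threshold. Nr1d1 encodes the repressor REV-ERB alpha. It had 61.3, 60.1 and 75.8 FPKM in control and 27.3, 38.6 and 29.98 in cuprizone libraries of WT, and 59.2, 63.7 and 69.7 in control and 66.6, 77.4 and 70.1 in cuprizone libraries of AHR CKO. The 3 WT cuprizone libraries were below the other 9. Nr1d1 fell to 0.486 of control in WT (adjusted p = 0.000159) and had a ratio of 1.11 in AHR CKO (interaction 1.18, SE 0.18, adjusted p = 0.0673).

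Dbp, an output factor of the clock, had means of 77.5 ± 12.8 FPKM in control and 37.7 ± 9.58 in cuprizone libraries of WT, and 85.2 ± 3.98 in control and 122 ± 28.1 in cuprizone libraries of AHR CKO (interaction 1.53, adjusted p = 0.122). Ciart, a clock repressor, had 3.88 to 7.02 FPKM in WT cuprizone and 17.3 to 24.5 in AHR CKO cuprizone, with no overlap (interaction 1.39, adjusted p = 0.0874). Cirbp, a cold-induced RNA-binding protein, showed the same order of groups (interaction 1.05, adjusted p = 0.103). The 17 clock genes did not move as 1 group. Of them 5 were positive at an unadjusted p under 0.05 (Nr1d1, Ciart, Dbp, Bhlhe41 and Nr1d2) and 1 negative, and the median was 0.02, which is the value of Tef. The negative gene was Per2, a core repressor that peaks at another time of day than Dbp (interaction -0.46, adjusted p = 0.405). The E-box, CACGTG, which the clock factors are known to bind and which was also chosen afterwards, was found in 5 of 15 clock genes with a window (33.33%) and in 8.093% of all genes. The sources used here do not give the time of day at which each group was collected.

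The rest of the 20 genes of smallest p were mixed. Prr18 and Serpinb1a, both expressed in oligodendrocytes, had interactions of 1.36 (adjusted p = 0.0874) and 1.95 (adjusted p = 0.146). Il33, an alarmin stored in the nuclei of oligodendrocytes and astrocytes, had 64.999 to 109 FPKM in control and 12.1 to 17.5 in cuprizone libraries of WT, and 36.95 to 50.5 in control and 19.9 to 23.6 in cuprizone libraries of AHR CKO (interaction 1.49, adjusted p = 0.0874). Cldn14, a tight junction protein, fell to 0.0948 of control in WT and to 0.451 in AHR CKO (interaction 1.09, adjusted p = 0.0681). Fbxo7, a subunit of a ubiquitin ligase, fell to 0.597 of control in WT (adjusted p = 0.000989), and its ratio in AHR CKO was 1.28 (adjusted p = 0.0841, interaction 1.04, adjusted p = 0.0673). Cela1, a serine protease, rose 2.22-fold in AHR CKO and had a ratio of 0.862 in WT (interaction 1.12, adjusted p = 0.153).

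The integrated stress response, in which the factor ATF4 raises genes of amino acid supply, had the opposite sign to the chaperones. Of 23 genes, 21 had a positive interaction, 6 of them at an unadjusted p under 0.05, with a median of 0.33. The median was 0.21 without WT cuprizone replicate 1. Cuprizone raised 13 of the 23 in WT (9.08% of all genes) and 16 in AHR CKO (7.22%), and 9 were higher in AHR CKO cuprizone than in WT cuprizone (9.14%). Trib3, a pseudokinase induced by ATF4 and chosen after its values were seen, had 3.18, 5.403 and 5.26 FPKM in WT cuprizone and 10.996, 11.04 and 11.96 in AHR CKO cuprizone, from 0.246 to 1.41 and 0.368 to 0.636 in the controls. It rose in both genotypes, and its interaction was 1.40 (SE 0.31, adjusted p = 0.2). Eif4ebp1, a brake on translation and also chosen afterwards, rose 3.14-fold in WT and 5.199-fold in AHR CKO (interaction 0.71, adjusted p = 0.281). The 2 most abundant members, Psat1 and Atf4 itself, had interactions of 0.33 and 0.06.

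Interferon-induced genes, which restrict viruses and also rise in reactive glia, had mostly positive interactions, which rested in part on 1 library. Of 44 type I effectors, 32 had a positive interaction, 8 of them at an unadjusted p under 0.05 with 1 negative, and the median was 0.17. Under cuprizone 15 of the 44 were higher in AHR CKO than in WT (9.14% of all genes). Ifit3, an antiviral RNA-binding protein chosen after its values were seen, had 21.9, 16.02 and 31.7 FPKM in WT cuprizone and 44.01, 53.6 and 53.4 in AHR CKO cuprizone, which did not overlap (interaction 1.18, adjusted p = 0.3). Cxcl10, a chemokine induced by interferon and chosen in the same way, had 12.04, 7.51 and 15.1 and 28.9, 39.5 and 49.1 FPKM (interaction 2.42, SE 0.54, adjusted p = 0.2). The most abundant effectors, Ifitm3 and Ifi27, had interactions of 0.31 and 0.14. Lgals3bp, a secreted glycoprotein, went the other way (-1.05, adjusted p = 0.491).

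The interferon-induced GTPases, which attack vacuoles of pathogens, had a median of 0.42 over 12 genes, with 3 positive genes (Gbp3, Gbp5 and Gbp7) at an unadjusted p under 0.05. Gbp3 had an interaction of 0.55 and Irgm1 of 0.39 (adjusted p = 0.497 and 0.719). Summed FPKM of the 44 effectors was 685, 412 and 613 in WT cuprizone replicates 1, 2 and 3 and 703 to 887 in AHR CKO cuprizone. Without WT cuprizone replicate 2, the lowest of them, the effectors' median was 0.02 with 6 positive genes at an unadjusted p under 0.05, and that of the GTPases 0.24 with 0. Leaving out another library gave the effectors medians from 0.09 (without AHR CKO control replicate 3) to 0.29 (without AHR CKO cuprizone replicate 1). The interferon-stimulated response element, searched as GAAA and GAAA spaced by 2 bases on either strand, was found in 15 of 31 effectors with a RefSeq window (48.39%), in 7 of 8 GTPases (87.5%) and in 3.993% of all genes. Matches in Ifit3 (chr19:34583363-34583392), Gbp3 (chr3:142559989-142560018) and Gbp5 (chr3:142496759-142496788), all on the plus strand, are shown in capitals with their flanks as examples of the element the lists share. Ifit3 holds a further match, 122 bases before the start, that is not shown.
Ifit3: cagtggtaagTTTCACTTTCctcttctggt
Gbp3: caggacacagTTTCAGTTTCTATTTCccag
Gbp5: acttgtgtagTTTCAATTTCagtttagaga

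**Figure D4:**
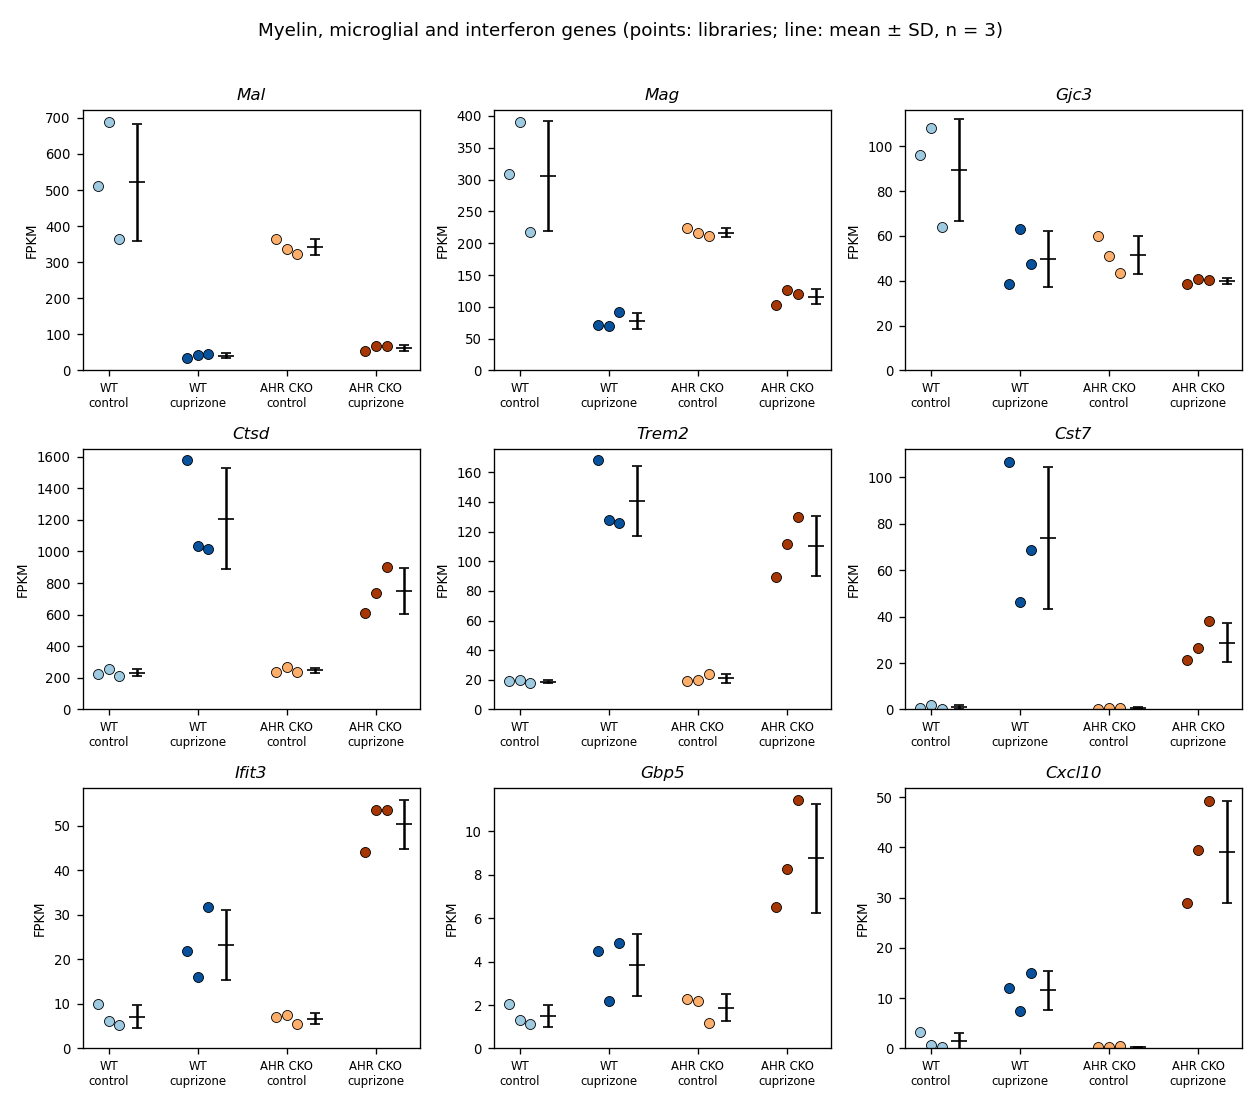
FPKM of 9 myelin, microglial and interferon genes in each library, with group means ± SD (n = 3; an error line that would pass below 0 is clipped there). Mal, Mag and Gjc3 have a lower mean under cuprizone in both genotypes and their highest mean in WT control, Ctsd, Trem2 and Cst7 have a higher mean in WT cuprizone than in AHR CKO cuprizone, and Ifit3, Gbp5 and Cxcl10 have a higher mean in AHR CKO cuprizone.

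Genes of activated microglia had interactions that were mostly negative and small. Of 26 genes of disease-associated microglia, the state that microglia enter near damaged myelin, 22 were negative, 4 of them (Ccl6, Ctsd, Cst7 and Trem2) at an unadjusted p under 0.05, with a median of -0.32. Cuprizone raised 21 of the 26 in WT (9.08% of all genes) and 22 in AHR CKO (7.22%). Ccl6, a chemokine of this state chosen after its values were seen, rose from a control range of 1.94 to 2.85 FPKM to a cuprizone range of 38.2 to 51.5 in WT, and from 1.81 to 2.87 in control to 13.4 to 25.5 in cuprizone libraries of AHR CKO (interaction -1.24, SE 0.30, adjusted p = 0.215). Trem2, a lipid-sensing receptor that this state depends on, also chosen afterwards, rose 7.46-fold in WT and 5.27-fold in AHR CKO, and its cuprizone groups overlapped at 126 to 168 and 89.4 to 129.9 FPKM (interaction -0.49, adjusted p = 0.488). Of the 2 most abundant members, Apoe, the lipid carrier, had an interaction of -0.43 (adjusted p = 0.697). Fth1, ferritin heavy chain, had one of 0.66 (adjusted p = 0.528), which was -0.36 under quantile normalization.

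Receptors and adaptors of phagocytosis, the uptake step for myelin debris, were negative in 21 of 28, 6 of them at an unadjusted p under 0.05, with a median of -0.32. Calr, counted above among the chaperones, is a member because it also serves as an uptake signal on dying cells. Itgb5, an integrin that binds bridging proteins on debris, had 75.3, 56.3 and 65.9 FPKM in WT cuprizone and 38.1, 43.5 and 55.01 in AHR CKO cuprizone, which did not overlap (interaction -0.56, adjusted p = 0.368). Sirpa, which receives a stop signal for uptake, had an interaction of -0.07. Lysosomal enzymes, which digest what is taken up, were negative in 25 of 32, 6 of them at an unadjusted p under 0.05, with a median of -0.20. Ctsd, the protease cathepsin D, rose 5.201-fold in WT and 3.02-fold in AHR CKO, to 1014 to 1578 FPKM in WT cuprizone and 611 to 903 in AHR CKO cuprizone (interaction -0.77, adjusted p = 0.34). Psap, the precursor of lysosomal saposins, had an interaction of -0.12.

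These 3 lists depended on single libraries, among them a pair at the extremes. Summed FPKM of the phagocytosis list was 1750.1, 1418 and 1442 in WT cuprizone replicates 1 to 3 and 1016, 1198 and 1291 in AHR CKO cuprizone replicates 1 to 3. Without AHR CKO cuprizone replicate 1 the medians of the activated microglia, phagocytosis and lysosome lists were -0.14, -0.12 and -0.10, and without WT cuprizone replicate 1 they were -0.13, -0.20 and -0.09. In each of these cases the negative genes at an unadjusted p under 0.05 numbered 2 or 3 in each list, against 8, 10 and 10 without AHR CKO cuprizone replicate 3. For the phagocytosis list that number was also 2 without WT control replicate 3 and 10 without WT cuprizone replicate 2. Homeostatic microglia genes were negative in 13 of 17, 2 of them (Fcrls and Gpr34) at an unadjusted p under 0.05, with a median of -0.25, and Cst3, a secreted protease inhibitor, had an interaction of -0.16. Summed FPKM of the homeostatic list under cuprizone was 3864 to 4258 in WT and 3591 to 3738 in AHR CKO, and these ranges did not overlap. Its part in the lists above was not tested. MHC class II genes were negative in 6 of 7 (median -0.48), 1 of them (H2-DMa) at an unadjusted p under 0.05, with H2-Ab1 at -0.67 and Cd74 at -0.48, but WT cuprizone replicate 2 alone summed to 71.6 FPKM against 254 and 239 in the other 2. Without it the H2-Ab1 interaction was -1.30 and that of Cd74 -1.13, and without AHR CKO cuprizone replicate 1 they were -0.29 and -0.07.

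**Figure D5:**
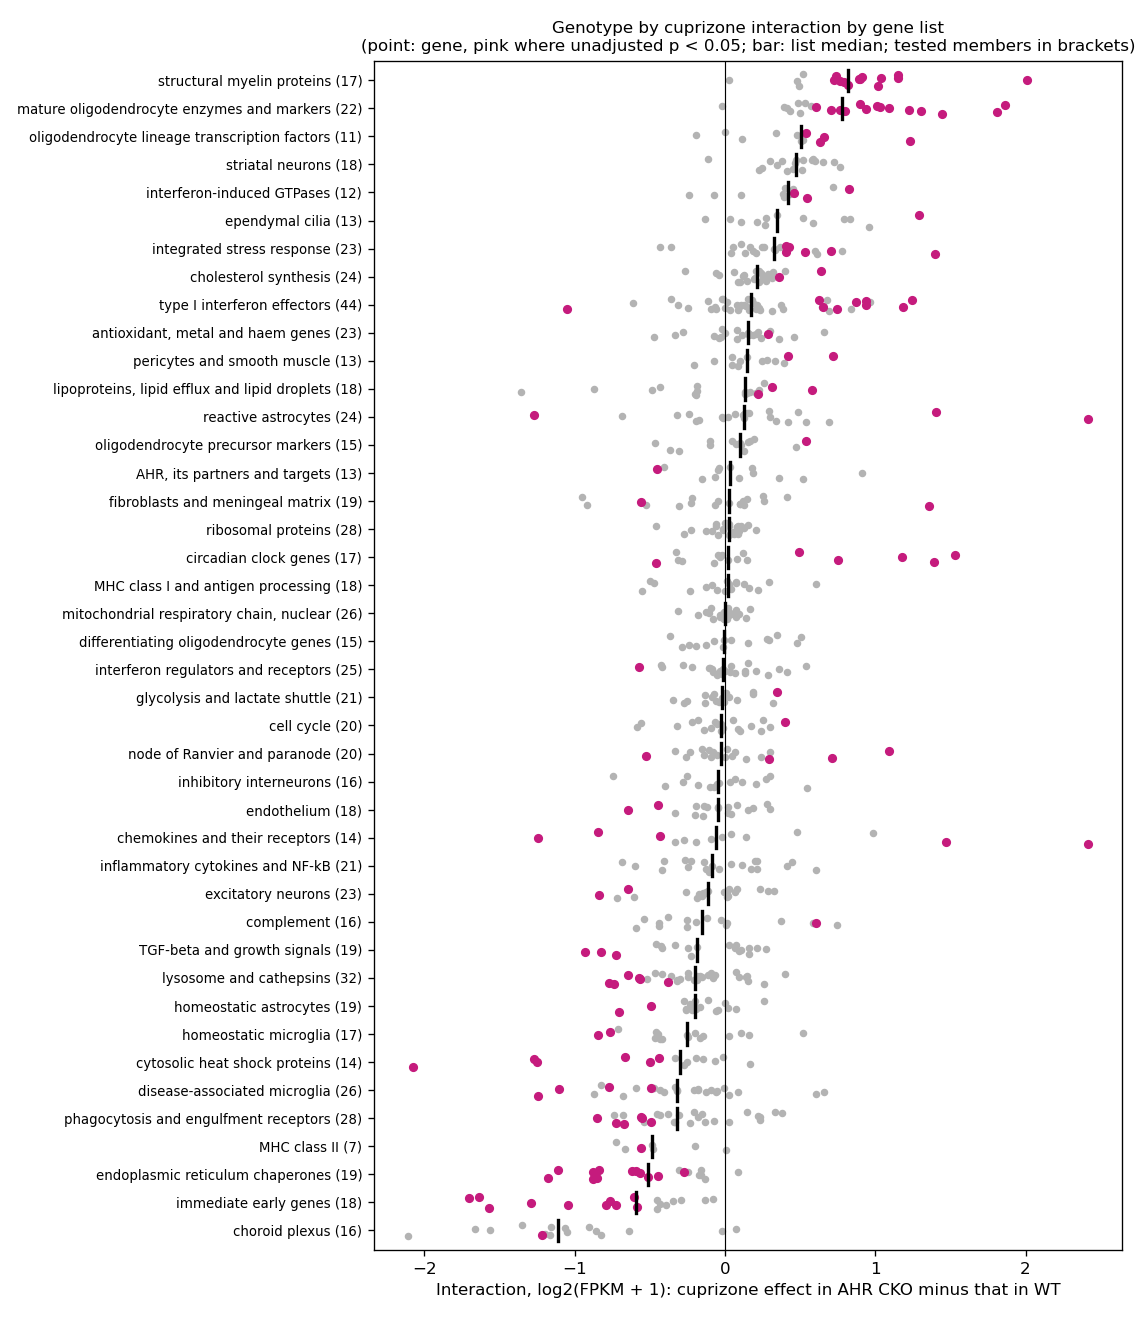
Interaction of each tested gene, on the log2(FPKM + 1) scale, for the gene lists with at least 5 tested members, ordered by the list's median (black bar). Pink points have an unadjusted p under 0.05. The myelin and mature oligodendrocyte lists lie farthest to the positive side, with medians of 0.82 and 0.78, and choroid plexus, immediate early and endoplasmic reticulum chaperone genes farthest to the negative side.

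The known targets of AHR did not share an interaction. Of 13 genes of the receptor, its partners and targets, 7 were positive and 6 negative, with 1 at an unadjusted p under 0.05. That gene was Tiparp, which encodes a repressor of AHR, with 4.93, 5.53 and 4.86 FPKM in control and 8.24, 6.74 and 7.85 in cuprizone libraries of WT, and 8.998, 7.24 and 7.12 in control and 7.8997, 7.69 and 8.43 in cuprizone libraries of AHR CKO. The WT controls were below the other 9 libraries, and the interaction was -0.45 (SE 0.15, adjusted p = 0.361). Cyp1b1, a cytochrome P450, had 0.938 to 2.06 FPKM in WT cuprizone and 1.42 to 5.58 in AHR CKO cuprizone (interaction 0.52, adjusted p = 0.753). Nqo1, a quinone reductase, had an interaction of 0.36 (adjusted p = 0.752), and Arnt2, a partner of the receptor, of 0.09.

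Of the metabolic lists, cholesterol synthesis, which myelin growth requires, was positive in 21 of 24 genes with a median of 0.22, 2 of them (Insig1 and Nsdhl) at an unadjusted p under 0.05, and Hmgcs1 and Srebf2 stood at 0.32 and 0.06. Without WT control replicate 3 its median was 0.33 with 10 such genes, and without WT cuprizone replicate 1 it was 0.13 with 2. The lipid transport list had a median of 0.13 over 18 genes (Fabp5 0.31). Antioxidant, metal and haem genes had a median of 0.15 over 23 (Mt1 -0.02), nuclear genes of the respiratory chain -0.0012 over 26 (Cox4i1 0.01, Cox8a -0.09), ribosomal proteins 0.03 over 28 (Rplp1 -0.01, Rps29 0.0027), glycolysis -0.02 over 21 (Pkm -0.04, Aldoa 0.0013) and the cell cycle -0.02 over 20 (Pcna 0.25, Ccnd1 -0.01).

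Among inflammatory lists, complement had a median of -0.15 over 16 genes (C1qa -0.25, C1qb -0.38), MHC class I of 0.02 over 18 (B2m -0.12, H2-D1 0.02), interferon receptors and regulators of -0.01 over 25 (Jak1 -0.11, Ifngr2 -0.57) and inflammatory cytokines of -0.09 over 21 (Nfkbia -0.13, Csf1 0.61). Chemokines were split, with 2 positive (Cxcl10 and Ccl5) and 3 negative (Ccl6, Ccl9 and Cxcl12) of 14 at an unadjusted p under 0.05 and a median of -0.06 (Cx3cl1 -0.19, Cxcl14 -0.27). Reactive astrocyte genes had a median of 0.13 over 24, and Gfap and Vim, their filament genes, had interactions of 0.02 and 0.13. Homeostatic astrocyte genes were negative in 15 of 19, with a median of -0.20 (Glul -0.21, Aldoc -0.06). Growth signals had a median of -0.19 over 19 genes (Gas6 0.02, Pdgfa 0.22) and genes of the node of Ranvier -0.03 over 20 (Kcnab2 -0.52).

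Markers of neighbouring tissue varied widely between libraries of 1 group. Summed FPKM of 16 choroid plexus genes was 210.2 to 378 in control and 105 to 3317 in cuprizone libraries of WT, and 525 to 4077 in control and 1118 to 3985 in cuprizone libraries of AHR CKO. Ttr, the transthyretin gene that defines this tissue, was at 40.1 FPKM or more in every library, and its interaction of -2.11 had an interval of -5.82 to 1.60. The list was negative in 15 of 16 genes with a median of -1.11, and 1, the prolactin receptor gene Prlr, had an unadjusted p under 0.05. That median was -0.46 without WT cuprizone replicate 1, with 0 such genes, and -1.78 without WT cuprizone replicate 2, with 10. Without AHR CKO control replicates 2 or 3 or AHR CKO cuprizone replicate 2 it was -0.62, -1.71 and -0.72. Enpp2, the most abundant member after Ttr and also made by oligodendrocytes, had an interaction of -0.02. Striatal neuron genes were positive in 17 of 18 with a median of 0.47, none at an unadjusted p under 0.05 (Ppp1r1b 0.73, Penk 0.45), and the median was -0.13 without WT control replicate 3 and 0.95 without WT control replicate 1.

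Erythroid genes, haemoglobins and their kin, were lower in AHR CKO in both treatments, with 3 of 3 called in each. Over all genes 4.76% were lower in AHR CKO among controls and 10.8% under cuprizone. Their sum over 3 genes was 84.6 to 139 FPKM in WT control and 52.8 to 230.4 in WT cuprizone, and 3.996 to 6.703 in AHR CKO control and 0.83003 to 28.7 in AHR CKO cuprizone, and their median interaction was -0.10 (Hba-a1 0.03, SE 1.20, and Hba-a2 -0.79, SE 0.70). These errors are wide, and leaving out 1 library moved the Hba-a1 interaction between -1.10 (AHR CKO cuprizone replicate 2) and 0.90 (AHR CKO cuprizone replicate 3). Haemoglobin copies are near identical, so each is uncertain on its own. Excitatory neurons had a median interaction of -0.12 over 23 genes (Nrgn 0.08, Snap25 0.24), interneurons -0.05 over 16 (Sst 0.03, Cck -0.40), ependymal cilia 0.35 over 13 (Foxj1 0.03, Rarres2 0.59), fibroblasts 0.03 over 19 (Ptgds 1.36, Igfbp2 -0.92), endothelium -0.05 over 18 (Slc2a1 0.19, Ly6c1 -0.12) and pericytes 0.15 over 13 (Vtn 0.42, Rgs5 -0.07). Border and infiltrating myeloid cells had 4 tested genes, with Pf4 at -0.93 and Ly6c2 at 0.35. Of 24 lymphocyte symbols 4 were in the table and 1 was tested, Cd4, at 0.73 (SE 0.69, adjusted p = 0.807). Whether Cd4 stands for lymphocytes here was not tested. Of 13 genes encoded by mitochondria 0 were found in the deposited table under the symbols searched, so they were not analysed.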

How the data were processed

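Per the labels' protocols, total RNA of the corpus callosum was purified with Qiagen RNeasy columns, and the SMARTER mRNA-Seq kit served for the libraries. The authors deposited 1 table of FPKM values in which, per the file headers, each gene symbol has 12 sample columns. Per the submitters' processing notes the build was GRCm38 (mm10), and the aligner, quantifier and annotation were not given in the sources used here. Such values hide the read number and let abundant genes shift the others, so no count test was run. In 25 symbols, 23 of them tested, a spreadsheet had put a date in place of the name, and these are not named.

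Genes at 1 FPKM or more in 3 or more libraries were tested (13759, 88.3%) as log2(FPKM + 1), which understates changes of low genes. Limma 3.58.1 in R 4.3.3 fitted 4 group means to all 12 libraries (lmFit, eBayes with trend). The interaction and the 4 simple comparisons were contrasts of this fit, two-sided, adjusted by Benjamini-Hochberg over all genes in each, with a threshold of 0.05. The fit was also run on simulated data with independent normal errors and no outlying libraries. That run cannot speak to the dependence on single libraries. Folds are ratios of mean FPKM.

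Gene lists (46, with 900 symbols, 814 in the table, 5 of them under another name, 784 tested) and members were chosen with earlier results of these data known. They are described by counts and medians, with no set test. By rule the text names Ahr, Tiparp, Cyp1b1, Nqo1 and Cx3cr1, the called genes, the 20 genes of smallest p (under 20 were called), and of each list up to 4 called members or the 2 most abundant, of which some are not reported here. All other genes were chosen after their values were seen, as were 3 of the 5 motifs.

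Depth came from the steps of FPKM times length in 1244 genes with 1 transcript, in a window that limits it to 8330000 to 20000000 fragments. Of the lowest values 69.7% to 86.67% lay within 0.2 of a whole number of steps. A transcript of 2 kb at 1 FPKM would have 22.8 fragments in the shallowest library. Positions are from GENCODE M21 and promoters from RefSeq. The alternatives were no filter, a filter on a mean of 5 FPKM, a pseudocount of 0.1, rescaling to a common total, median-of-ratios and quantile scaling, sample quality weights, no trend, the replicate number as a block, a length and GC correction (13123 genes), a minimum interaction of 1, and each library left out in turn.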

Additional observations from a re-analysis of the deposited data

Results flagged for a closer look

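The cuprizone effect differed between WT and AHR CKO, by the limma interaction term, for 5 genes. Opalin (interaction 2.01) and Aspa (1.86) fell in both genotypes, and less in AHR CKO. Hspa5 (-1.18) and Hspa1b (-2.08 on the log2 scale) rose in WT, with adjusted p for AHR CKO of 0.576 and 0.602. Egr2 (-1.64) rose in WT from controls that lay below those of AHR CKO. The 3 WT cuprizone libraries were the lowest of the 12 for Opalin and Aspa and the highest for Hspa5 and Hspa1b, and the 3 WT control libraries were the lowest for Egr2.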

How the results depend on the processing

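The 5 called genes kept their sign under 23 of 23 alternatives. The filters, no trend, the replicate block and the minimum interaction leave the estimate unchanged, so the sign was fixed there. The 5 genes passed the threshold in 15 (Hspa5), 13 (Egr2), 11 (Hspa1b), 10 (Aspa) and 8 (Opalin) of the 23, with highest adjusted p of 0.123, 0.123, 0.152, 0.152 and 0.182. Against 5 calls (2 positive, 3 negative) there were 1 with no filter (0 positive, 1 negative), 2 with no trend (0 positive), 12 with the length and GC correction (4 positive, 8 negative) and 2556 with sample quality weights (1607 positive, 949 negative), which ranged from 0.338 to 6.93 between libraries. Median-of-ratios scaling and quantile normalization each left 1 positive call. Leaving out 1 library gave 0 to 103 calls, 0 to 96 positive and 0 to 28 negative; the most calls and the most positive ones came without WT control replicate 3, the most negative ones without WT cuprizone replicate 2. The replicate block gave 0 calls (0 positive, 0 negative), with a smallest adjusted p of 0.0911 and 1125 genes at an unadjusted p under 0.05. Same-numbered libraries correlated between -0.34 and 0.25 after group means were removed, over 0.1 in 3 of 18 pairs. Of the 12 libraries, 3 correlated best with their own number. What the number stands for was not given in the sources used here, and whether same-numbered libraries share a batch was not tested. No scaling moved the median of all genes by more than 0.07. The medians of 16 lists were recomputed, and 14 kept their sign; the exceptions were clock genes (-0.07 to 0.11) and striatal neurons (-0.26 with quality weights to 0.95 without WT control replicate 1). With 3 libraries a group the median SE was 0.18, and the smallest interaction called was that of Hspa5 (-1.18). Genes at low FPKM have few fragments, and their values are the least precise.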
